A study of Mus musculus with 6 samples.

Results

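H3K27ac ChIPseq in A9 cells gave 1161 merged regions that were called with the DMSO vehicle and with curcuphenol and were not called with IFN-γ. The regions called in the 3 treatments were merged wherever they overlapped by 1 bp or more, which gave 70818 merged regions. The 1161 regions were selected on this presence and absence, and they made up 1.64% of all merged regions (95% interval 1.55 to 1.74%). Of the 28797 merged regions that held both a DMSO and a curcuphenol region, 4.03% had no IFN-γ region. Because the absence itself chose the members, this count is a description and carries no test.

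Acetylation of lysine 27 of histone H3 marks active promoters and enhancers, where acetyltransferases deposit it and histone deacetylases remove it. IFN-γ acts through its receptor and the JAK kinases and induces the genes of MHC class I antigen processing. Regions that lose or gain this mark upon a cytokine treatment are often read as elements whose use differs between the treated and the untreated cell.

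A9 is a metastatic mouse lung tumour line, a clone derived from the TC1 line. Per treatment, 1000000 cells were plated and, after a day, cultured for 48 h in 1% DMSO, 0.00167 µmol curcuphenol or 5.832x10-6 nmol IFN-γ, and 130000 live cells were taken. There was 1 H3K27ac library and 1 input library for each treatment, so no spread between replicates could be measured, no difference between treatments was tested, and a treatment and its library cannot be told apart. The lists held 47899 DMSO, 48763 curcuphenol and 55622 IFN-γ regions as positions only, without heights or read counts, and the depth behind a region is unknown. A region can be missing from a list because it carried less of the mark or because it fell below the calling threshold, and the lists do not separate these. Among 6 epithelial marker genes Krt8, a keratin, was the single gene with a called promoter, in the DMSO and IFN-γ lists. Called promoters were found at 8 of 10 mesenchymal markers in the DMSO list, at 7 in the curcuphenol list and at 8 in the IFN-γ list. None of 6 leukocyte and 5 endothelial markers had a promoter region in any of the 3 lists.

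The sequences of 7 members are shown because the members differed in base composition according to their position. They come from the plus strand of GRCm38 (mm10, RefSeq) and cover 300 bp around the centre of the sequence that DMSO and curcuphenol shared, and capitals mark CpG dinucleotides. The first 4 are among the members with the longest shared sequence and lay far from a transcription start site (TSS). They are named after the gene with the nearest TSS: Slitrk1 at chr14:108035948-108036247, Rasa1 at chr13:85399062-85399361, Gnat3 at chr5:18000074-18000373 and Pxdn at chr12:29998968-29999267. The other three lay at the promoters of Adam12 (chr7:134224972-134225271), Mir132 (chr11:75173418-75173717) and Xrcc1 (chr7:24546550-24546849).
Slitrk1: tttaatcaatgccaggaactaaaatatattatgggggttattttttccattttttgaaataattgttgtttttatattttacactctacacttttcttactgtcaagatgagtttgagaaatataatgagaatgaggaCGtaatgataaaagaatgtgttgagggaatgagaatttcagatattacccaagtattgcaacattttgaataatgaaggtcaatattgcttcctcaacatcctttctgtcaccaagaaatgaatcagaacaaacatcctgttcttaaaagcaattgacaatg
Rasa1: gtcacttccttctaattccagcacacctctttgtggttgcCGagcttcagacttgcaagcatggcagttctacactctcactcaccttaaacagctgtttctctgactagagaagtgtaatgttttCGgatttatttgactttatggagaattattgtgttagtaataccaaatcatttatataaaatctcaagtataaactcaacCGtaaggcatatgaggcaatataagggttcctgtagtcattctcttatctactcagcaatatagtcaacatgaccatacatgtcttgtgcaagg
Gnat3: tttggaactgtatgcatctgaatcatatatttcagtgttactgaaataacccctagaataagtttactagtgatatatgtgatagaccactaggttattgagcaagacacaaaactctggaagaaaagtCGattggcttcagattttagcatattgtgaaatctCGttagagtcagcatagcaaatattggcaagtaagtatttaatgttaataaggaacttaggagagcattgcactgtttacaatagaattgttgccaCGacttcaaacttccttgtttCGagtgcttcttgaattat
Pxdn: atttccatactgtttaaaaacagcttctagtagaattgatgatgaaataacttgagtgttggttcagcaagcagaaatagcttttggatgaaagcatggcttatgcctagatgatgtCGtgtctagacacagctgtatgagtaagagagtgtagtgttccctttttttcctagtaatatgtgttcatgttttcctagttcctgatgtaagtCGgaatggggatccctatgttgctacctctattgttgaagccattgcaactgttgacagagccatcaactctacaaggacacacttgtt
Adam12: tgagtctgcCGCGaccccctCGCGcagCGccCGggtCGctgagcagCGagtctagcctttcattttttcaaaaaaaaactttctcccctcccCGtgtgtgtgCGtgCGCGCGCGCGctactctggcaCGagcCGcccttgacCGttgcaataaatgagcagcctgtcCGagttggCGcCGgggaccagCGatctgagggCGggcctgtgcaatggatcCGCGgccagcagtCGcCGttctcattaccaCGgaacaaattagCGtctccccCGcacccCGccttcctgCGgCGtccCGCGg
Mir132: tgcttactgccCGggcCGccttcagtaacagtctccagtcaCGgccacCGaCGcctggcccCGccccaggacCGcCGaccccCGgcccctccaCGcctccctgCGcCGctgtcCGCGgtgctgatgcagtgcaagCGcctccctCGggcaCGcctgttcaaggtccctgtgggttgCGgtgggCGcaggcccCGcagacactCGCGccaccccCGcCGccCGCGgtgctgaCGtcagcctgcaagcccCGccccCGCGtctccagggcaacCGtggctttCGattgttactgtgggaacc
Xrcc1: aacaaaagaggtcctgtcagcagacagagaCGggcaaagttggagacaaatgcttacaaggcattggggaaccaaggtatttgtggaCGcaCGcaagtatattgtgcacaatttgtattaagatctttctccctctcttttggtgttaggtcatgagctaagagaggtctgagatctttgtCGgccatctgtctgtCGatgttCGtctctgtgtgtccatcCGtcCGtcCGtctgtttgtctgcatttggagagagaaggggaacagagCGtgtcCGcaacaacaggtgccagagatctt
The distal sequences held 1 CpG at Slitrk1, 3 at Rasa1, 4 at Gnat3 and 2 at Pxdn, with a GC content of 30, 38.0, 34.3 and 39.3%. The promoter sequences held 35 CpG at Adam12, 32 at Mir132 and 11 at Xrcc1, with a GC content of 64.0, 72.0 and 48.0%.

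The members were short in both lists. Their median width was 436 bp with DMSO (95% interval of the median 419 to 462 bp) and 606 bp with curcuphenol (577 to 651 bp), whereas merged regions found in all 3 lists had medians of 1685, 1607 and 1824 bp in the DMSO, curcuphenol and IFN-γ lists. The sequence shared by the DMSO and curcuphenol regions had a median of 313 bp (306 to 325 bp) and reached 500 bp in 223 members and 1000 bp in 30 members. In 73 members the regions shared less than 100 bp. Most members, 790 of 1161, were wider with curcuphenol, 369 were wider with DMSO and 2 had the same width. This order was not particular to the members. Regions called in a single list had medians of 384 bp for DMSO alone and 595 bp for curcuphenol alone. A single DMSO region met a single curcuphenol region in 1101 members, 38 members held 2 DMSO regions and 22 held 2 curcuphenol regions. Where a member held 2 regions of a list, its width in that list is their sum. The DMSO region of 148 members was shorter than 267 bp, the shortest region in the IFN-γ list. The shortest regions of the whole DMSO and curcuphenol lists were 221 and 297 bp, so no curcuphenol region could be under 267 bp. The plot of widths by class shows the medians of the members and of the regions in all 3 lists.

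**Figure D1:**
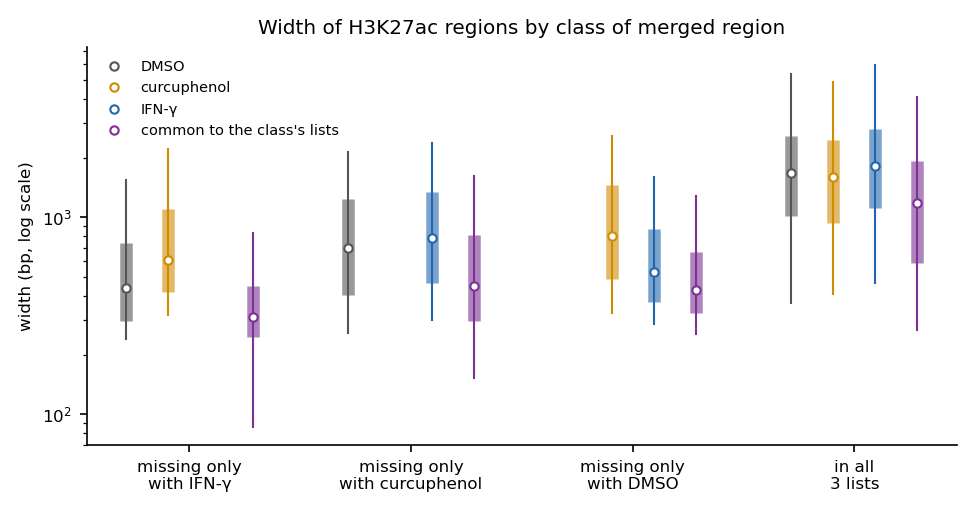
Width in bp (log scale) of the regions of each list, and of the sequence common to the lists of a class, in 4 classes of merged regions. Circles are medians, thick bars the middle 50% of regions and lines the 5th to 95th percentile. Regions missing only with IFN-γ had a median of 436 bp with DMSO and 606 bp with curcuphenol, below the 1685 and 1607 bp of the regions in all 3 lists.

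The member with the longest shared sequence lay between genes on chromosome 14 (chr14:108033801-108037335), 878141 bp from the TSS of Slitrk1, a neuronal transmembrane protein of synapse formation. It measured 3471 bp with DMSO and 2412 bp with curcuphenol, with 2348 bp in common, and the nearest IFN-γ region was 196074 bp away. A member 109726 bp upstream of Rasa1, a GTPase activating protein of Ras (chr13:85397928-85400847), was 1815 bp wide with DMSO and lay within a curcuphenol region of 2920 bp. In an intron of Ppp1r9a, nearest to the TSS of the paraoxonase gene Pon1 (chr6:5081976-5084758), the widths were 2525 bp with DMSO and 1913 bp with curcuphenol. All 3 lay at least 18162 bp from any IFN-γ region.

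Within Gnat3, the gene of the taste G protein gustducin (chr5:17999385-18001157), the intronic member was 1773 bp wide with DMSO and 1554 bp with curcuphenol, and no IFN-γ region lay within 249903 bp. The intronic member in Pxdn, which encodes the collagen IV cross-linking enzyme peroxidasin (chr12:29997464-30000318), was 1536 bp wide with DMSO and 2855 bp with curcuphenol and stood 2542 bp from an IFN-γ region. The Gnat3 member stood alone in its neighbourhood and the Pxdn member beside called IFN-γ regions. The rest of the 8 members with the longest shared sequence were nearest to Gm29536 (1613 bp with DMSO, 1845 bp with curcuphenol), 1700034K08Rik (1650 and 1578 bp) and Gm6644, in an intron of Plcl1 (1542 and 1705 bp).

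At the edge of the rule, the member in an intron of Spry4, a feedback inhibitor of receptor tyrosine kinase signalling (chr18:38592106-38592904), was 1 bp from an IFN-γ region. A member upstream of Gm47708 (chr10:95685283-95686178) was 10 bp from one. Just outside the rule, merged regions nearest to Mgme1, Ldlrad4 and Gm13470 held IFN-γ regions that overlapped them by 28, 40 and 45 bp. For such regions, presence in the IFN-γ list turned on where the ends of called regions were placed.

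The share of merged regions that lacked IFN-γ fell with the width of the sequence common to DMSO and curcuphenol. It was 29.99% (518 of 1727) for common sequences under 300 bp, 10.7% (420 of 3910) at 300 to 499 bp, 4.28% at 500 to 749 bp, 1.72% at 750 to 999 bp, 0.402% at 1000 to 1499 bp, and 0.0708% (8 of 11307) at 1500 bp or more. The other pairs of lists followed the same order at higher levels. Among merged regions with DMSO and IFN-γ regions 20.99% lacked curcuphenol, from 58.8% at the shortest to 3.48% at the longest common width, and among those with curcuphenol and IFN-γ regions 11.2% lacked DMSO, from 54.96 to 0.744%. Regions missing only with IFN-γ were thus the smallest of the 7 classes, beside 7343 missing only with curcuphenol and 3489 missing only with DMSO. The classes share the same 3 libraries. The IFN-γ list was also the longest of the 3, and its part in the size of the class was not tested.

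**Figure D2:**
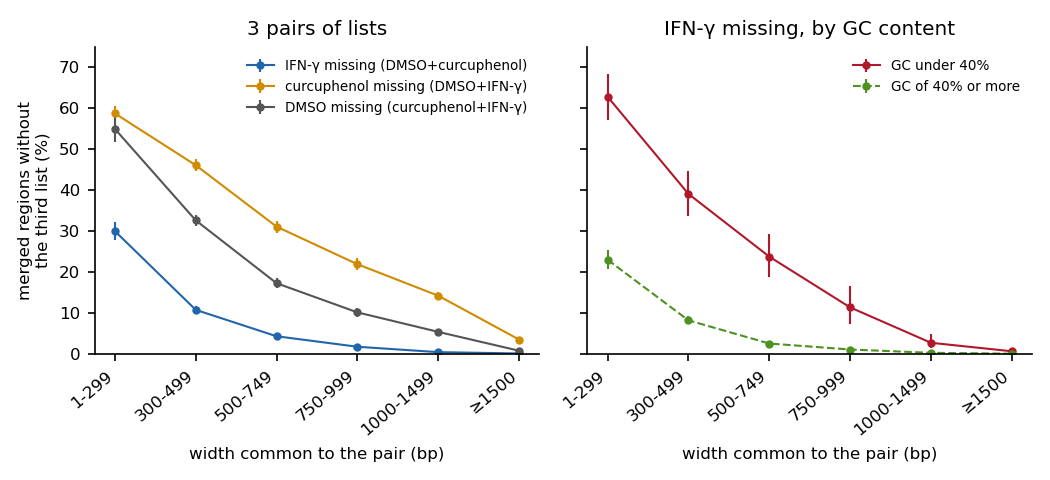
Percentage of merged regions without the third list, by the width in bp common to the other two lists (left, 3 pairs of lists), and for IFN-γ split by the GC content of the 300 bp window (right). Points are percentages and bars exact 95% binomial intervals. The share without IFN-γ fell from 29.99 to 0.0708% with width, and at 300 to 499 bp it was 39.1% under 40% GC and 8.17% at 40% GC or more.

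Base composition went with absence from the IFN-γ list at every width. When the 300 bp around the centre held less than 40% GC, 17.2% of the merged regions with DMSO and curcuphenol regions (422 of 2460) had no IFN-γ region, against 2.81% (739 of 26337) at 40% GC or more. Below 300 bp of common width the shares were 62.8 and 22.98%, at 500 to 749 bp they were 23.7 and 2.50%, and at 1000 to 1499 bp they were 2.69 and 0.235%. The exact 95% intervals of the AT-rich and the other regions did not overlap in any of these bins, and such intervals cover counting error only.

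Over all widths, the pairs that lacked another list showed a smaller difference or the opposite direction. For DMSO and IFN-γ regions the share without curcuphenol was 28.1% under 40% GC and 20.4% above it. At 1000 to 1499 bp these were 28.2 and 13.1%, further apart in points than the shares without IFN-γ. For curcuphenol and IFN-γ regions the share without DMSO was lower in AT-rich windows, 6.69 against 11.6%. At 500 to 749 bp it was close in both, 16.3 against 17.3%. Regions called only with DMSO were the most AT-rich of the 7 classes, with 52.3% of windows under 40% GC. The GC content of the reads of each library is not in the lists, and its part in these shares was not tested.

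The median GC content of the members was 41.7% (41.3 to 42.0%), compared with 46.3% in regions missing only with curcuphenol, 48.0% in regions missing only with DMSO and 49.7% in regions of all 3 lists. Regions called only with DMSO had a median of 39.7%. Windows under 40% GC made up 36.3% of the members (33.6 to 39.2%), 10.8% of the regions missing only with curcuphenol and 4.18% of those missing only with DMSO. A CpG was absent from 14.6% of the member windows, and the median number was 2. Repeat-masked bases took a median of 14.3% of the window in the members, 11.3% in regions missing only with curcuphenol, 12.3% in those missing only with DMSO, 15% in those of DMSO alone and 8% in regions of all 3 lists. At the other end, 56 members reached 55% GC, and 19 of these lay at promoters.

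**Figure D3:**
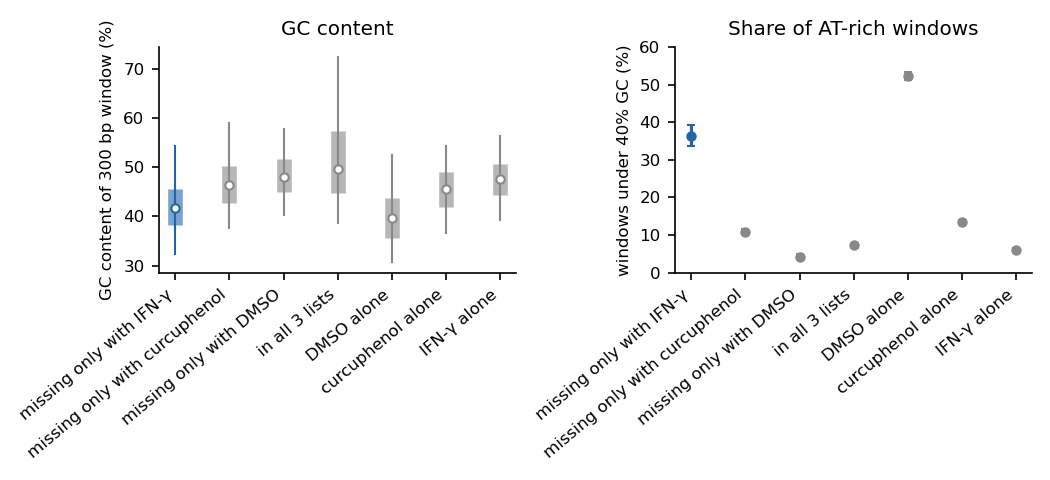
GC content of the 300 bp window in the 7 classes of merged regions (left: median, middle 50% and 5th to 95th percentile) and percentage of windows under 40% GC with exact 95% binomial intervals (right). Regions missing only with IFN-γ, in blue, had a median of 41.7% GC and 36.3% of windows under 40% GC, between the regions of DMSO alone (39.7% and 52.3%) and the other classes.

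Short recognition letters of 17 transcription factor groups were counted on both strands of the 300 bp windows. The AP-1 letters TGANTCA, bound by the JUN and FOS families, were present in 17.6% of the members (15.4 to 19.9%), 12.7% of regions missing only with curcuphenol, 17% of those missing only with DMSO, 19.2% of regions of all 3 lists and 16.2% of all merged regions. In 500 bp windows the order against the regions of all 3 lists turned, with 33.6% of the members and 29.2% of those regions. The GAS letters TTCNNNGAA, the STAT element, were in 12.3% of the members (10.5 to 14.3%) and 9.38% of all merged regions. Regions of DMSO alone were near the members, at 12.03%. At 40% GC or more the shares of the members and of all merged regions were 12.9 and 8.99%, and under 40% GC they were 11.4 and 11.9%. The ISRE letters GAAANNGAA, bound by IRF factors, were in 11.9% of the members and 10.6% of all regions. They were in 13.99% of the regions of DMSO alone and 12.4% of those missing only with curcuphenol. A match of these letters is not a site of binding.

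The SP/KLF letters GGGCGG were in 4.13% of the members, 10.9% of all merged regions and 20.9% of the regions of all 3 lists, and also in 2.61% of the regions of DMSO alone. The ETS letters CCGGAAG were in 1.03% of the members, 2.95% of all merged regions and 0.874% of the regions of DMSO alone. The GATA letters TGATAA were in 16.4% of the members, 11.5% of all merged regions and 17.3% of the regions of DMSO alone. At matched composition the shares of the members and of all merged regions were 23.9 and 20.8% under 40% GC. They were 12.04 and 10.02% at 40% GC or more.

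Most members lay away from promoters. Of the 1161 members, 533 were intergenic and 532 intronic by their centre, 41 lay in a promoter (1000 bp upstream to 100 bp downstream of a TSS), 17 at a transcript end, 14 in a coding exon, 14 in a 3′ UTR, 3 in a 5′ UTR and 7 in an exon of a non-coding transcript. The promoter share of 3.53% (2.55 to 4.76%) compared with 3.30% of the regions missing only with curcuphenol, 2.26% of those missing only with DMSO and 15.6% of the regions of all 3 lists. The median distance to the nearest TSS was 34265 bp (30191 to 36919 bp), against 26530 bp for regions missing only with curcuphenol, 22495 bp for those missing only with DMSO and 10304.5 bp for regions of all 3 lists. A TSS was more than 100 kb away from 24.6% of the members, compared with 16.2 and 13.1% of the like classes. Regions of DMSO alone lay farther out than the members, with a median distance of 38529.5 bp and 27.2% beyond 100 kb. Their promoter share was 2.41%. A gene body held 594 members, and for 453 of them the nearest TSS belonged to the gene they lay in.

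**Figure D4:**
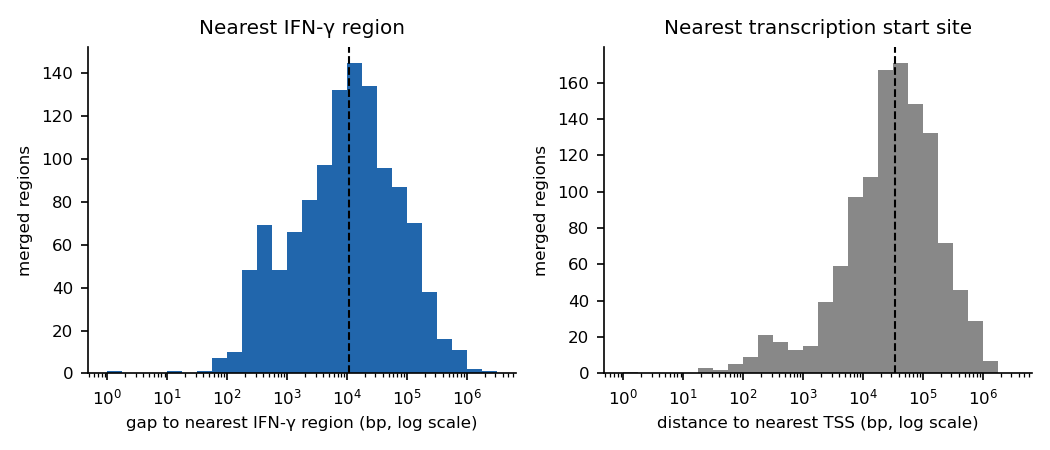
Gap from each of the 1161 members to the nearest IFN-γ region (left) and distance from its centre to the nearest TSS (right), both in bp on a log scale, as numbers of merged regions. Dashed lines mark the medians, 10720 bp and 34265 bp.

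Among the 41 promoter members, 26 had no IFN-γ region in any promoter window of the gene whose promoter they lay in, and 15 had one elsewhere at that gene's promoters. An IFN-γ region lay within 1 kb of 21 of the 41, beside 15.9% of all members. The longest shared sequence among the promoter members, 1117 bp, stood 900 bp upstream of Mpp7, a membrane-associated guanylate kinase of cell polarity (chr18:7608457-7609684), in a window that was repeat-masked throughout. Adam12 is a secreted or membrane metalloprotease of the ADAM family. The centre of its member lay 25 bp upstream of the TSS (chr7:134224238-134225626), which the member covered. The member held 2 DMSO regions of 1055 bp together and a curcuphenol region of 1126 bp. The nearest IFN-γ region was 6047 bp away. Adam12 was also the nearest gene of 6 merged regions present in all 3 lists.

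The promoter member of Mir132 (chr11:75173307-75174025), a microRNA gene that shares its transcript with Mir212, was 719 bp wide with DMSO and 476 bp with curcuphenol, and its nearest IFN-γ region was 2305 bp away. Its window held the CRE letters TGACGTCA, bound by CREB, which 4 of the 1161 members held (0.345%, Mir132 included), beside 0.456% of all merged regions. At Xrcc1, the scaffold of single-strand break repair, a member of 477 bp with DMSO and 421 bp with curcuphenol covered the TSS (chr7:24546457-24546933), and an IFN-γ region began 278 bp away, beside DMSO and curcuphenol regions.

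Mesd, a chaperone of the LRP5 and LRP6 receptors, had a member of 572 bp with DMSO and 551 bp with curcuphenol (chr7:83888888-83889509). Hoga1, a mitochondrial aldolase, had a member of 510 and 515 bp (chr19:42045540-42046083), the only merged region nearest to it. The member nearest to Chtf18, a subunit of a clamp loader (chr17:25726990-25727491), lay in the promoter of Rpusd1 and was 502 bp wide with DMSO and 407 bp with curcuphenol. Mical1, an actin-oxidizing monooxygenase, had a member of 423 bp with DMSO within 1181 bp with curcuphenol (chr10:41476646-41477846). The GC content of the 41 promoter members ranged from 35.3 to 77.0%, with a median of 54.0%. Prl2c2 and Prl2c3, near-identical copies of proliferin, were 2 more of the promoters, and reads from such copies can be placed at either, so both are uncertain.

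**Figure D5:**
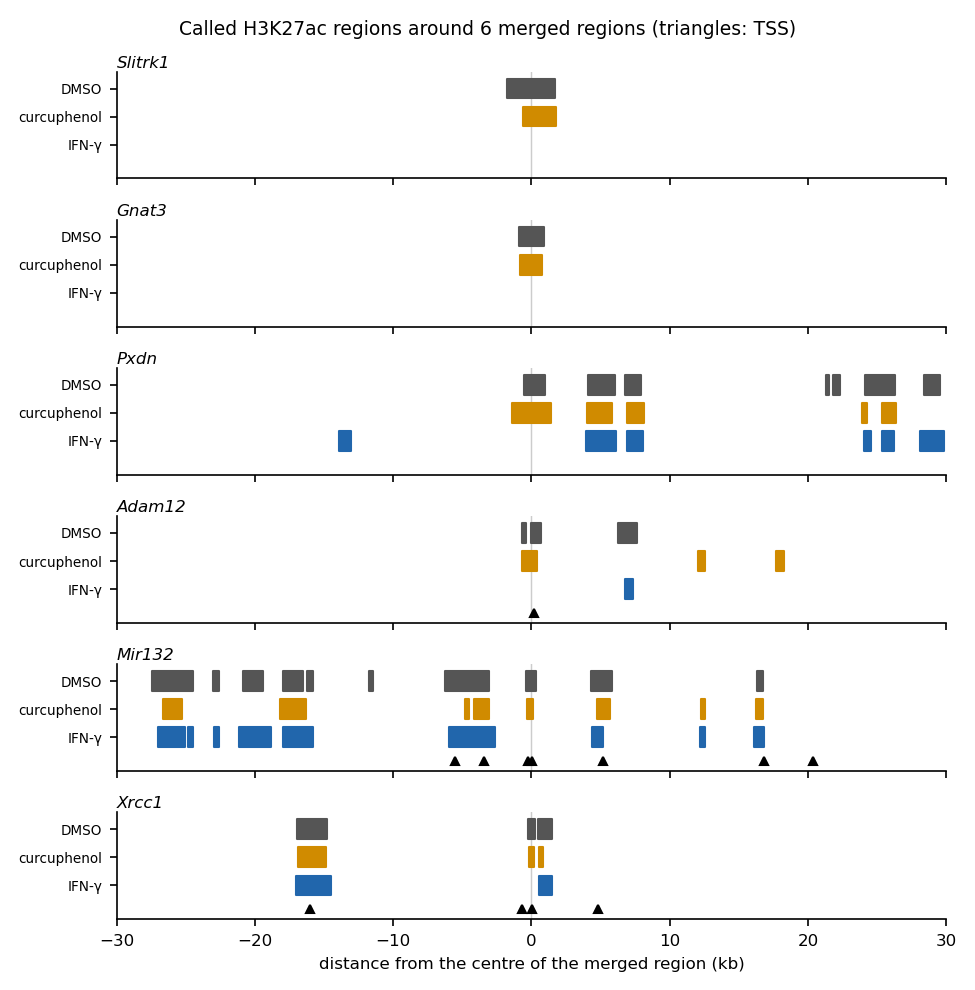
Called H3K27ac regions with DMSO, curcuphenol and IFN-γ within 30 kb on either side of the centres of 6 members (x axis: distance in kb), with TSSs as triangles. Slitrk1 and Gnat3 had 1 DMSO, 1 curcuphenol and 0 IFN-γ regions in this span, whereas Pxdn had 7, 5 and 6 and Mir132 had 10, 8 and 9.

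Members stood both beside called IFN-γ regions and far from any. The median gap to the nearest IFN-γ region was 10720 bp (9215 to 12131 bp), whereas the nearest other DMSO region was 8232 bp and the nearest other curcuphenol region 7151 bp away. The missing list came within 50 kb of 78.9% of the members, compared with 90.3% of the regions missing only with curcuphenol and 89.8% of those missing only with DMSO. Within 1 kb of an IFN-γ region lay 185 members (15.9%), and beyond 50 kb lay 245 (21.1%). The near members had a median of 428 bp with DMSO and 476 bp with curcuphenol and stood 15025 bp from a TSS. The far members had 463 and 630 bp, stood 109331 bp from a TSS, and were intergenic in 62.0% against 33.0% of the near members. Another DMSO region was also more than 50 kb away for 152 of the 245 far members. The 50 kb on either side of a member, its own regions left out, held a median of 2973 bp of DMSO regions, 3277 bp of curcuphenol regions and 2747 bp of IFN-γ regions. IFN-γ covered more of these flanks than DMSO at 474 members and less at 535.

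Some members were neighbours. With centres at most 50 kb apart, 56 runs of 2 members, 6 runs of 3 and 3 runs of 4 were found. The run at Gm29536 (chr1:79143800-79198882) held 4 members with 2942 bp of shared sequence among 5 DMSO, 5 curcuphenol and 0 IFN-γ regions. A run between Wdr75, a ribosome biogenesis factor, and Slc40a1, the iron exporter ferroportin (chr1:45825110-45874990), held 4 members among 6 DMSO, 7 curcuphenol and 2 IFN-γ regions. The third run of 4 lay in an intron of Rasal2, a GTPase activating protein of Ras, nearest to the TSS of Gm30694 (chr1:157247122-157257727), with 4 DMSO, 4 curcuphenol and 0 IFN-γ regions.

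The share of DMSO and curcuphenol regions without IFN-γ varied between chromosomes. The share was 7.23% on chromosome X (58 of 802, 5.54 to 9.25%), 5.71% on chromosome 15 and 5.67% on chromosome 18, and it was lowest on chromosomes 19 (2.51%) and 11 (2.52%). Chromosome 1 held 103 members among its 1922 merged regions with DMSO and curcuphenol regions (5.36%), and chromosome 2 held 105 among 2275 (4.62%). Over all chromosomes the share was 4.03%.

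The nearest TSSs of the members belonged to 1030 genes, which were 5.83% of the 17672 genes nearest to any merged region. A single member was nearest to 922 of them, 2 members to 90 and 3 or more to 18, with 4 at most. The 1030 genes had a median of 7 merged regions each, against 2 over all genes, and a gene with more merged regions has more that can be members. A region called only with IFN-γ was nearest to 505 of the 1030 genes, beside 6235 of all 17672 genes. A region present in all 3 lists was nearest to 794 of the 1030, for which no share over all genes was counted. Neither count allows for the larger number of merged regions per gene. Among the 804 protein-coding genes of the 1030, a promoter region of the DMSO list lay at 63.7%, of the curcuphenol list at 62.9% and of the IFN-γ list at 60.4%, whereas over all 14532 coding genes these shares were 67.2, 65.6 and 68.5%. The members that chose the 1030 genes lack IFN-γ by the rule, and 41 of these members lay in promoters. The lower IFN-γ share is therefore no separate result.

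The 5 genes nearest to 4 members each were Gm29536, Gm13974, Pdgfc, Mir3964 and Gm30694. Pdgfc encodes a ligand of the platelet-derived growth factor receptor. One of its members lay 1853 bp upstream of the TSS (chr3:81033872-81034736), with 836 bp with DMSO and 318 bp with curcuphenol, and was 619 bp from an IFN-γ region. The other three lay in its introns, 120528 to 161123 bp downstream, at chr3:81156664-81157123, chr3:81157445-81158234 and chr3:81197164-81197760. Of 23 merged regions nearest to Pdgfc, 10 were present in all 3 lists and 1 was called only with IFN-γ. Gm13974 had 3 of 20 in all 3 lists and Mir3964 had 4 of 22.

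No member had a gene of the 3 interferon lists examined as its nearest gene. The lists for MHC class I and antigen processing, IFN-γ signalling and interferon-stimulated genes held 70 genes that were nearest to some merged region, and 0 of the 70 were nearest to a member (exact 95% interval 0 to 5.13%), beside 5.83% of all genes. These genes had 302 merged regions, of which 121 were called only with IFN-γ and 112 were present in all 3 lists, so that 0 of their 112 merged regions with DMSO and curcuphenol regions lacked IFN-γ (0 to 3.24%). The member closest to a TSS of these genes was 77833 bp from that of B2m, the light chain of MHC class I, at chr2:122069157-122070052, and the next was 107022 bp from Usp18, an interferon-induced ISG15 protease. Counts of 0 were also found for the lists of AP-1 and ATF factors (19 genes), epithelial and lung genes (13), G2/M checkpoint genes (25) and housekeeping genes (14).

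Of 33 nuclear receptor genes near any merged region, 7 were nearest to a member, among them Rarb, Thrb, Rorb and Pgr. By gene this was 21.2%, beside 5.83% of all genes, and by region 8 of 268 (2.99%), beside 1.64% of all merged regions. Rarb, the retinoic acid receptor beta, had 2 intronic members, of 1082 bp with DMSO and 1219 bp with curcuphenol (chr14:16734439-16735908) and of 278 and 758 bp (chr14:16551381-16552138), among 27 merged regions. Thrb, the thyroid hormone receptor beta, had an intronic member of 602 and 809 bp (chr14:17783625-17784467). The member nearest to Pgr, the progesterone receptor, was 368 bp with DMSO within 5378 bp with curcuphenol and lay in the 3′ UTR of Arhgap42. Of 24 genes of non-homologous end joining, 4 were nearest to a member: Xrcc5 (Ku80) with 2 intronic members, and Nbn, Trp53bp1 (53BP1) and Poll (DNA polymerase lambda) with 1 each. These were 16.7% of the genes and, by region, 5 of 76 (6.58%). The longer Xrcc5 member (chr1:72371627-72372960) was 636 bp with DMSO and 1334 bp with curcuphenol, and the shorter (chr1:72313960-72314282) was 238 and 323 bp.

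The study took pathways of this kind from DMSO regions that had no IFN-γ region and overlapped a curcuphenol region, 1612 in number. The same selection here, on DMSO regions without merging, also gave 1612, and it takes in the DMSO regions of the members. Higher shares in these lists, the nuclear receptor and end joining lists included, are therefore not independent evidence. In homologous recombination 1 of 21 genes (Rad51b) was nearest to a member, in the kainate receptor list 2 of 5 (Grik2 and Dlg1), in the IGF list 2 of 15 (Igfbp3 and Cd44), in the FOXO list 2 of 20 (Gadd45a and Klf4), in the RUNX and tight junction list 2 of 21 (Tjp1 and Runx3), and in the WNT list 5 of 25. Together with the nuclear receptor, end joining and G2/M lists these held 186 genes, of which 25 were nearest to a member (13.4%, 8.89 to 19.2%). The 186 genes also had a median of 4 merged regions each, and counted by region, 27 of their 1258 merged regions were members (2.15%, 1.42 to 3.11%), beside 1.64% over all merged regions. Some nearest TSSs were remote, at 1017989 bp for Grik2, 686808 bp for Igfbp3 and 473411 bp for Klf4. Those of Dlg1, Cd44 and Gadd45a were 7626, 12994 and 34746 bp away. The WNT members included Lrp5, the co-receptor, with 1031 bp with DMSO within 3195 bp with curcuphenol (chr19:3691788-3694982), the antagonists Dkk2 and Kremen1, and Znrf3, a ubiquitin ligase that removes WNT receptors. The Kremen1 and Znrf3 members both lay in introns of Znrf3.

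Growth factor, matrix and adhesion genes made up several of the other lists. Of 37 receptor tyrosine kinase and ligand genes 5 were nearest to a member, and they held 8 members: Pdgfc, Hgf (312 bp with DMSO, 519 bp with curcuphenol), Fgf10 (254 and 502 bp) and Kitl (291 and 381 bp) were among them. Of 24 collagen genes 4 were nearest to a member, led by Col5a2 with 1482 bp with DMSO and 754 bp with curcuphenol (chr1:45540870-45542404) and Col11a1 with 2245 and 402 bp (chr3:113951915-113954159). Of 38 genes of integrins, laminins and proteoglycans 5 were nearest to a member, with Gpc6, a glypican, at 1174 and 1458 bp (chr14:116927759-116929343) and Dcn, decorin, at 812 and 2170 bp. Of 20 cadherin genes 4 were, with Cdh18, Pcdh1, Cdh13 and Cdh6. Counted by region, the members were 2.74% of the regions of the receptor tyrosine kinase list, 2.07% of the collagen list, 1.46% of the integrin list and 2.40% of the cadherin list.

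A further list held cytokines, chemokines and their receptors, and 6 of its 33 genes were nearest to a member (18.2%, beside 5.83% of all genes). By region these were 7 of 253 (2.77%). Il33, an alarmin cytokine, had 2 members, the longer with 983 bp with DMSO and 1409 bp with curcuphenol 7894 bp upstream of the TSS (chr19:29916913-29918321), and 5 of its 13 merged regions were present in all 3 lists. Il1a, Prl and the prolactin receptor gene Prlr followed with 1 member each. In the list of histone deacetylases and acetyltransferases, genes nearest to a member included the class IIa deacetylases Hdac4 (701 bp with DMSO, 813 bp with curcuphenol, in an intron, chr1:92064013-92064939) and Hdac7 (499 and 690 bp). The lists of TGF-β genes (4 of 34), YAP and TEAD genes (2 of 22), MAPK feedback genes (2 of 24), mesenchymal genes (3 of 19), axon guidance genes (3 of 38), developmental transcription factors (6 of 31), Krüppel-like factors (2 of 13) and MYC and cyclins (2 of 22) made up the remainder. By region their shares ran from 1.08% for the MAPK feedback list to 2.13% for the developmental factors, on both sides of the 1.64% of all merged regions. The mesenchymal marker Zeb1 was nearest to 2 members.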

How the data were processed

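H3K27ac ChIPseq was made by the authors in A9 cells. Their alignment used BWA mem on mm10, and MACS2 2.1.2 in paired-end mode called regions at an FDR cutoff of 0.01 against each treatment's own input. The deposited files give the start and end of each region in bp, the only value used, which is neither a count nor a score. Of the BWA version, the submitters' processing notes give 0.7.17 and the study's methods another, so it is uncertain.

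The 3 lists were merged at 1 bp of overlap. Merged regions with DMSO and curcuphenol and without IFN-γ regions were taken as members. Positions were compared with RefSeq GRCm38 (45756 curated transcripts), and all 152284 regions ended inside its chromosomes. A region's centre is that of the longest stretch covered by all lists of its class, and TSS distances were taken from it. The promoter spans 1000 bp upstream to 100 bp downstream of a TSS. GC content and motifs were read from the 300 bp around the centre. Shares have exact Clopper-Pearson 95% intervals, and medians exact binomial ones. Regions are not replicates, so these cover counting error only. With 1 library per treatment no test was run. Merging and distances were checked on simulated regions.

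The members and the gene lists were chosen with earlier results of these data known. Named were the 8 members with the longest shared sequence, the 8 longest promoter members, the 5 genes nearest to most members, up to 4 genes of each gene list by shared length, the 3 longest runs, and the 3 members and 3 other regions nearest to the limit of the rule. Some items that this rule named are not reported here. Prl2c2 and Prl2c3, the chromosomes and the members nearest to interferon genes were named after their values were seen. Python 3.11.15, numpy 2.4.6, pandas 2.3.3 and scipy 1.17.1 were used.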

Additional observations from a re-analysis of the deposited data

How the results depend on the processing

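Of 23 alternatives, 9 left a result within its interval, or a count within 1.5 times, and 14 moved it. The number of members was 2570 when regions were joined at a reciprocal overlap of 50%, and 299 when DMSO and curcuphenol regions of at least 500 bp were kept. It stayed at 976 without those within 1000 bp of an IFN-γ region, 1111 with regions within 500 bp joined, 1612 for unmerged DMSO regions and 1013 when both regions were at least as long as the shortest IFN-γ region (added after seeing the data). The share without IFN-γ was 12.07, 1.28 and 3.58% for the first, second and last of these settings. The promoter share was 8.18% with 2000 bp on either side of the TSS and 6.12% with any overlap. The median TSS distance was 20023 bp with all RefSeq transcripts, 42658 bp with protein-coding TSSs and 46967 bp for the 223 members sharing at least 500 bp. For these 223 the median gap to an IFN-γ region was 13239 bp, the median GC content 40.3% and the AP-1 share 34.1%. In 500 bp windows the AP-1 share was 33.6%, against 25.9% of all merged regions and 29.2% of regions in all 3 lists. The numbers of members and the shares thus depend on the overlap and width required, while the median GC content stayed between 40.3 and 41.7%, also for members with no IFN-γ region within 1000 bp (41.7%, likewise added after seeing the data). No paired analysis was possible because each treatment has 1 library. Depth is unknown, and absence from a list does not show absence of the mark.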

Other observations

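A member lay on chromosome Y, although the line comes from a female mouse. It stood at chrY:90783513-90783907, 1676 bp upstream of Erdr1, and was 283 bp wide with DMSO and 394 bp with curcuphenol. The lists held 12 DMSO, 10 curcuphenol and 10 IFN-γ regions on that chromosome. Erdr1 is a gene of the pseudoautosomal region, which chromosomes X and Y share.

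A run of 3 members lay at Rhox2b and Rhox2c, homeobox genes of a duplicated cluster on chromosome X (chrX:37398029-37456202), with 3 DMSO, 7 curcuphenol and 0 IFN-γ regions. Reads from near-identical copies can be placed at any of them. Another run of 3 members lay within 3543 bp near Sqstm1, which encodes the autophagy receptor p62 (chr11:50198031-50201573), without an IFN-γ region in the run. IFN-γ regions lay close by. The member at chr11:50200433-50201573 was 110 bp from one, and its DMSO and curcuphenol regions shared 29 bp. The 50 kb on either side of this member held 24822 bp of IFN-γ and 21412 bp of DMSO regions.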
